A study of Mus musculus with 8 samples.

Results

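Cirbp and Rbm3 encode the cold-inducible RNA-binding proteins CIRBP and RBM3. These 2 genes, of 38215 listed, were selected by name, together with all of their 18 annotated transcripts (7 of Cirbp and 11 of Rbm3, of 92351 listed). They had been chosen with their levels in the same 8 libraries already known. The difference between the tissues and the transcript shares are therefore given as a description, with no test.

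The libraries were made from sorted regulatory T cells (Treg) of the bone marrow (BM-Treg, 4 libraries) and of the spleen (SP-Treg, 4 libraries). All came from untreated mice that the labels call C57Bl/6. The study describes them as B6.FoxP3-GFP reporters aged 12 weeks, in which a green fluorescent protein marks cells expressing FoxP3. Its methods give mice as female unless otherwise indicated, which differs from the male label of some libraries given below. The depth of a library, as summed expected counts of its genes, lay from 12427136 to 21921252. BM-Treg replicates 1 to 3 are labelled as batch 1 and female, whereas BM-Treg replicate 4 and every spleen library are given as batch 3 and male, so tissue, batch and sex cannot be told apart outside batch 3, which holds 1 BM-Treg library. The study's methods give 4 biological replicates per condition, whereas the legend of its heatmap of these data gives 3 per tissue. The labels do not say whether the libraries of a tissue came from separate animals. The titles of the spleen libraries hold number ranges that overlap between libraries and are not explained, so whether these were pools that share animals is not known, and errors and p-values describe only the spread between these libraries. RNA was amplified without molecular identifiers, so intervals and limits given for single libraries cover counting error only.

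The transcripts of the sex chromosomes were examined first, since Rbm3 lies on the X chromosome. Xist, the RNA that silences an X chromosome in female cells, stood at 1232, 2270 and 2275 counts per 1000000 (CPM, scaled by TMM library sizes) in BM-Treg replicates 1, 2 and 3, and between 1.51 and 2.63 CPM in the other 5 libraries. The Y-linked genes Ddx3y, Eif2s3y, Kdm5d and Uty together reached 154 CPM in BM-Treg replicate 1 and 63.4 in replicate 2, both labelled female, against 2.02 in replicate 3. In BM-Treg replicate 4 their sum was 234 CPM, and in SP-Treg it lay between 258 and 286. BM-Treg replicates 1 and 2 thus held both Xist and Y-linked transcripts, which their label does not provide for, and the fold changes of both genes and the transcript values of Cirbp are also given without them. The labelled cell type was supported by its markers in every library: Foxp3 was between 1274 and 2083 CPM, and of 8 Treg and T cell markers 0 passed edgeR's test between the tissues (2 were lower in BM-Treg at an unadjusted p under 0.05, and DESeq2 called 1 lower).

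CIRBP and RBM3 are small proteins that join a single RNA recognition motif to a glycine-rich tail. Their RNAs are known to accumulate when mammalian cells are cooled slightly and to decline when cells are warmed, the opposite of heat shock genes. Both proteins bind other mRNAs and influence their stability, translation and polyadenylation, among them transcripts of the circadian clock. Both genes are also known to be controlled through splicing, by retained introns or alternative last exons in Cirbp and by a poison exon in Rbm3, that is, an exon whose inclusion brings in a premature stop codon.

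Cirbp (ENSMUSG00000045193) lies on the plus strand at chr10:80165985-80172786 (GRCm38). Its main coding transcript, Cirbp-202, starts at 80167778 in GENCODE M21, encodes 172 residues and is 1321 nt long. The sequence in front of this start is shown because it holds the letters of the mild cold responsive element, TCCCCGCC, an octamer known from the mouse Cirbp promoter as a binding site of Sp1. It is the part of 1 of the 2 RefSeq promoter windows of Cirbp (GRCm38.p6, plus strand, chr10:80167589-80167777) that precedes Cirbp-202, and the capitals mark, in order, the octamer, a GC box, a CCAAT box, a second GC box and a second CCAAT box, the last pair in reverse complement.
Cirbp upstream of Cirbp-202: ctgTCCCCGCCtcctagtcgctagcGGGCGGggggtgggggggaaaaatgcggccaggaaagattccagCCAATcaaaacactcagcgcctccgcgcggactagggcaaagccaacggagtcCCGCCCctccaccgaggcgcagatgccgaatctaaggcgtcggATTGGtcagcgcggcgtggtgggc
TCCCCGCC (GGCGGGGA on the other strand) was found 1 time in these 189 bases, both strands searched as for all motifs here, and 2.86% of 32851 RefSeq promoter windows cut to the same length held it. The GC box GGGCGG was found 2 times (22.6% of windows) and CCAAT 2 times (26.5%). The E box CACGTG (3.99%), the heat shock pair GAANNTTC (4.89%) and the cAMP responsive letters TGACGTCA (0.685%) were not in this stretch. None of the letters searched overlap in it.

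Cirbp was higher in BM-Treg, where more cells expressing it and more RNA per cell cannot be told apart in bulk libraries. Its level in BM-Treg replicates 1 to 4 was 16.9, 15.1, 20.3 and 18.5 FPKM (fragments per kilobase of transcript, scaled by depth, 17.7 ± 2.23, SD, n = 4). In SP-Treg replicates 1 to 4 it was 5.85, 5.82, 5.66 and 8.48 FPKM (6.45 ± 1.35, SD, n = 4). The lowest BM-Treg library was above the highest SP-Treg library, SP-Treg replicate 4, which stood apart from the other spleen libraries. The expected counts behind these levels were 358, 361, 527 and 256 in BM-Treg and 83, 79, 75 and 137 in SP-Treg, all of them listed as whole numbers. The fitted log2 fold change, BM-Treg over SP-Treg, was 1.50 ± 0.19 (SE), a ratio of 2.82. Of all 13397 genes that passed the expression filter, 7.58% had every BM-Treg library above every SP-Treg library and 8.57% had every one below, and nothing is read from these shares for Cirbp, which was selected on the same values. Within batch 3, BM-Treg replicate 4 had 21.4 CPM against 5.97, 6.31, 6.28 and 10.1 in SP-Treg, or 1.60 as a log2 fold change. The fitted value was 1.54 without BM-Treg replicate 1 and 1.58 without replicate 2, and without both of these libraries with Xist and Y-linked transcripts it was 1.67.

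Rbm3 (ENSMUSG00000031167) lies on the minus strand at chrX:8138975-8145880. It was the more abundant gene by far, at rank 229 by mean FPKM among the genes that passed the filter, where Cirbp was at rank 5419. Its level in BM-Treg replicates 1 to 4 was 294, 297, 324 and 266 FPKM (295 ± 24.0, SD, n = 4). In SP-Treg replicates 1 to 4 it was 277, 223, 228 and 262 FPKM (248 ± 26.2, SD, n = 4). On this scale the groups overlapped, since BM-Treg replicate 4 was below SP-Treg replicate 1. In CPM the BM-Treg libraries, at 319, 318, 350 and 310, were all above the SP-Treg libraries, at 292, 270, 280 and 308, with a gap between BM-Treg replicate 4 and SP-Treg replicate 4 that was small beside the SDs of 17.7 and 16.1. The fitted log2 fold change was 0.17 ± 0.09 (SE), a ratio of 1.13, and within batch 3 it was 0.13. It was 0.21 without BM-Treg replicate 1, 0.18 without replicate 2 and 0.23 without both. On log2(FPKM + 1), with all libraries, it was 0.26. The difference in Rbm3 was therefore small beside that in Cirbp, and its groups touched or overlapped. The FPKM of Rbm3 was 16.8 ± 2.25 times that of Cirbp in BM-Treg and 39.2 ± 6.75 times in SP-Treg (SD, n = 4 each), and this ratio was below 20 in each BM-Treg library and above 30 in each SP-Treg library.

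**Figure D1:**
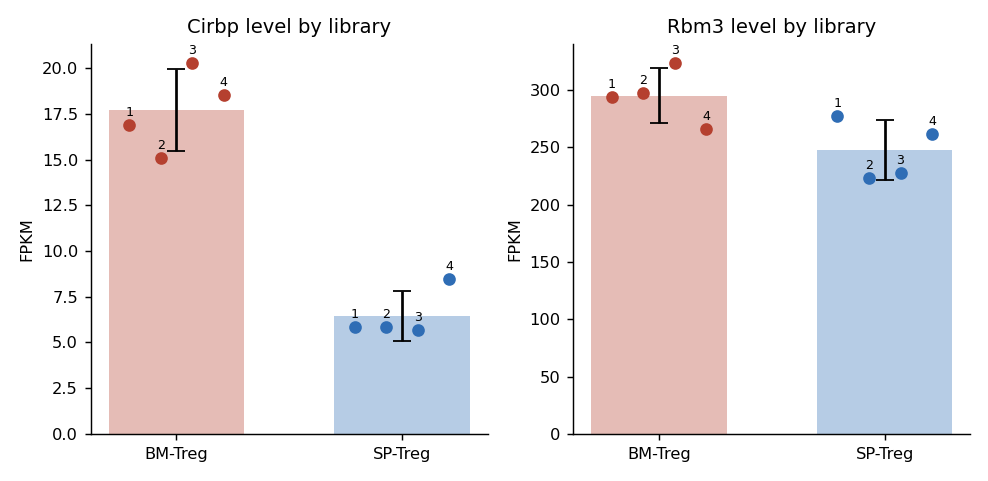
FPKM of Cirbp (left) and Rbm3 (right) in BM-Treg and SP-Treg, with bars for means of 4 libraries, error bars for SD and points for single libraries with their replicate number. Cirbp is between 15.1 and 20.3 FPKM in BM-Treg and between 5.66 and 8.48 in SP-Treg, whereas the Rbm3 libraries of the tissues overlap.

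The transcripts of Cirbp part after a shared exon end at 80170764. Cirbp-202 goes on to its last coding exon at 80170982, Cirbp-201, annotated as a target of nonsense-mediated decay, skips to exons from 80172414 onwards, and Cirbp-206, a retained-intron transcript, reads into the intron. The 30 bases around this point (plus strand, GRCm38, GENCODE M21) are shown since they tell these transcripts apart, with the bases after the shared exon in capitals.
Cirbp-202: gctatgacagttatgCTACACACAACGAGT
Cirbp-201: gctatgacagttatgGATGAAGGGGAGCCA
Cirbp-206: gctatgacagttatgGTAAGTCTAGCTCCA
Shares of transcripts are estimates that the authors' counting program made for overlapping models, and they rest on few reads in Cirbp.

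The coding share of Cirbp was on average higher in BM-Treg, with overlap between the tissues. In BM-Treg replicates 1 to 4, Cirbp-202 took 95.9, 89.5, 92.6 and 90.2% of the expected counts of the gene (92.0% ± 2.89, SD, n = 4). In SP-Treg replicates 1 to 4 it took 75.0, 74.2, 66.9 and 89.7% (76.5% ± 9.55, SD, n = 4). The share was lower in SP-Treg replicates 1 to 3 than in any other library, and SP-Treg replicate 4 lay beside the lowest BM-Treg libraries. Wilson 95% intervals in BM-Treg replicates 1 to 4 were 93.2 to 97.4%, 85.9 to 92.2%, 90.0 to 94.5% and 86.0 to 93.3%. In SP-Treg replicates 1 to 4 they were 64.4 to 82.8%, 64.1 to 83.0%, 55.4 to 76.3% and 83.6 to 93.8%, the last overlapping those of BM-Treg. With shares taken from FPKM in place of counts, the tissue means differed by 20.0 percentage points, against 15.5 by counts. By counts the difference was 14.3 without BM-Treg replicate 1, 16.4 without replicate 2 and 14.9 without both.

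The retained-intron transcripts of Cirbp differed less in level than the coding transcript. Cirbp-206 was at 0.496, 1.22, 1.42 and 1.37 CPM in BM-Treg replicates 1 to 4 (1.13 ± 0.429, SD). In SP-Treg replicates 1 to 4 it was at 1.25, 0.864, 1.23 and 0.808 CPM (1.04 ± 0.235, SD), so the groups overlapped widely. Over all 4 retained-intron transcripts the means were 1.38 ± 0.579 and 1.23 ± 0.159 CPM, a ratio of 1.12, whereas the coding transcript, at 18.6 ± 2.67 and 5.60 ± 2.30 CPM, had a ratio of 3.33. Summed, the retained-intron transcripts were at 0.553 CPM in BM-Treg replicate 1, at 1.51 CPM or more in replicates 2 to 4 and between 1.03 and 1.42 CPM in SP-Treg, so that only BM-Treg replicate 1 was not above all spleen libraries. Without it the ratio was 1.34 (coding 3.31), without BM-Treg replicate 2 it was 1.08 (3.54) and without both 1.40 (3.63). It fell to 0.978 without BM-Treg replicate 4 (3.29) and was 1.54 within batch 3 (3.45), all of these values added after the data had been seen. As a share of the gene, the retained-intron transcripts were 6.87% ± 2.89 in BM-Treg and 18.3% ± 5.53 in SP-Treg (SD, n = 4), without overlap between the highest BM-Treg library (9.01%) and the lowest SP-Treg library (10.3%). Shares taken from FPKM, 12.1% ± 5.54 and 26.7% ± 6.34, did overlap, with 18.0% in BM-Treg replicate 4 and 17.4% in SP-Treg replicate 4. Over all genes, transcripts annotated with a retained intron took between 6.45 and 7.43% of expected counts in BM-Treg and between 5.93 and 7.35% in SP-Treg, so the tissues overlapped there. Cirbp-201 stayed at or below 0.251 CPM in BM-Treg, and in SP-Treg it ranged from 0 in replicate 4 to 0.654 CPM in replicate 3. Cirbp-204 and Cirbp-207, the latter with a distant first exon, were assigned 0 of the 1876 counts of Cirbp in the 8 libraries, which allows a share of up to 0.160% each at a confidence of 95% for counting error alone, and more if reads were assigned wrongly among the overlapping models.

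**Figure D2:**
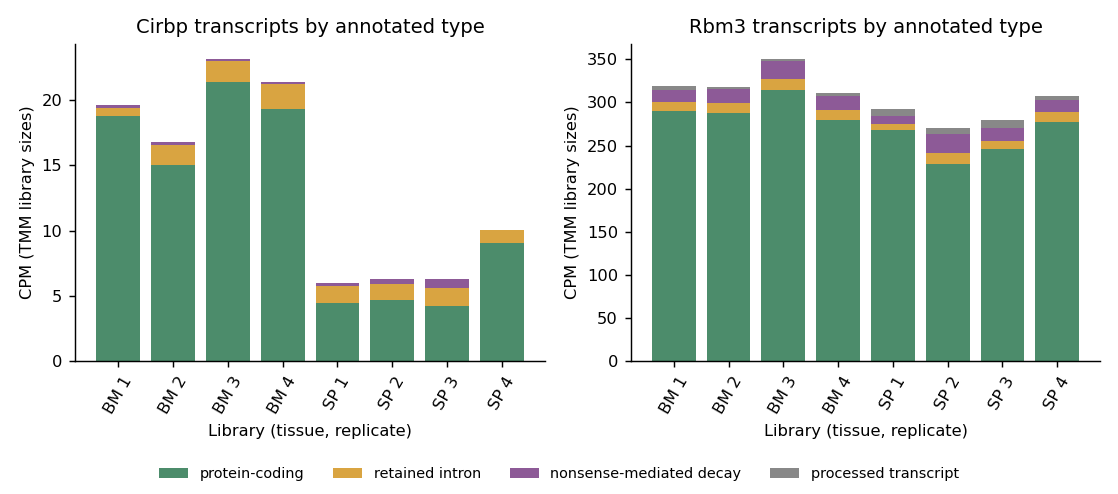
CPM of the transcripts of Cirbp (left) and Rbm3 (right), stacked by annotated type, in each library. In Cirbp the coding part is taller in BM-Treg and the retained-intron part is thin in every library, and in Rbm3 the coding part makes up most of each bar, with smaller parts on top that vary between libraries.

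Rbm3 has a poison exon of 271 bases at chrX:8144175-8144445, found in this annotation as the exon that Rbm3-207 and Rbm3-208 hold and no other Rbm3 transcript does. Both are annotated as targets of nonsense-mediated decay. The junction that skips this exon, as in Rbm3-203, and the junction into it, as in Rbm3-207, are shown with the bases after the junction in capitals (minus strand, GRCm38, GENCODE M21).
Rbm3-203: gctatgaatggagagTCCCTGGATGGGCGC
Rbm3-207: gctatgaatggagagGGGGTGGAGGGCAGC
The first 63 bases of the exon (chrX:8144383-8144445) follow, with the stop codon that ends the reading frame in capitals.
Rbm3 poison exon: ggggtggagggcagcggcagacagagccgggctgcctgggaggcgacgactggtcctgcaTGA
Transcripts with the poison exon took 4.35, 5.23, 5.82 and 5.54% of the expected counts of Rbm3 in BM-Treg replicates 1 to 4 (5.23% ± 0.638, SD, n = 4). In SP-Treg replicates 1 to 4 they took 3.14, 8.18, 5.11 and 4.76% (5.30% ± 2.10, SD, n = 4). The lowest and the highest share were both in the spleen, and the difference between the means was far below the spread. The division between Rbm3-207 and Rbm3-208 was unsteady, as Rbm3-207 was at 0 in SP-Treg replicate 3 and at 14.6 CPM in replicate 2.

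The coding transcripts of Rbm3 differ mainly in their ends and in a choice between 2 splice acceptors 3 bases apart, which gives proteins of 154 or 153 residues. The 30 bases around this junction are shown for both, with the bases of the next exon in capitals (minus strand, GRCm38, GENCODE M21; last base before the junction 8143658).
Rbm3-203: agactacagtggcagAAGCCAGGGTGGCTA
Rbm3-202: agactacagtggcagCCAGGGTGGCTATGA
Transcripts with the longer form took 58.1, 63.3, 59.3 and 57.6% of the counts on transcripts that cover this junction in BM-Treg, and 58.4, 62.1, 57.5 and 58.7% in SP-Treg. The means, 59.6% ± 2.59 and 59.2% ± 2.02 (SD, n = 4), differed by less than either SD. Rbm3-203 (43.8% ± 4.51 in BM-Treg and 45.2% ± 5.39 in SP-Treg) and Rbm3-202 (35.2% ± 2.75 and 34.2% ± 2.02) made up most of the gene in both tissues. All 6 coding transcripts together took 90.3% ± 0.518 in BM-Treg and 88.5% ± 3.09 in SP-Treg.

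Rbm3-211 differed from the gene in direction. It is a processed transcript without a reading frame at chrX:8138975-8142918 that covers the 3′ end of the gene. It was at 4.28, 2.99, 2.76 and 2.41 CPM in BM-Treg replicates 1 to 4 and at 7.74, 6.76, 9.94 and 4.74 CPM in SP-Treg replicates 1 to 4. The groups did not overlap, with means of 3.11 ± 0.816 and 7.29 ± 2.16 (SD, n = 4). As a share of Rbm3, Rbm3-211 was small, 0.963% ± 0.265 and 2.56% ± 0.823. Retained-intron transcripts took 3.49% ± 0.160 of Rbm3 in BM-Treg and 3.60% ± 0.949 in SP-Treg.

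None of the neighbouring genes of Cirbp and Rbm3 examined here passed edgeR's test at the main settings. Midn, before Cirbp, had a log2 fold change of 0.40 ± 0.13 (adjusted p = 0.0625 by edgeR, from quasi-likelihood fits with p-values adjusted over all genes, as elsewhere here). Its groups did not overlap, at 148 to 170 CPM in BM-Treg and 88.3 to 141 CPM in SP-Treg. Midn passed by DESeq2 (0.41), with either other count filter (0.43 each), without the genes of the sex chromosomes and the mitochondrial genome (0.43), with the replicate block (0.42) and without SP-Treg replicate 4 (0.49). 1600002K03Rik, which starts 158 bases behind Cirbp, averaged 1.88 ± 0.676 CPM in the bone marrow and 2.65 ± 0.914 CPM in the spleen (adjusted p = 0.450). Beside Rbm3, Wdr13 (log2 fold change -0.36 ± 0.14, adjusted p = 0.141) and Tbc1d25 (0.40 ± 0.16, adjusted p = 0.154) went in opposite directions without passing. Within batch 3, Wdr13 was at -0.53 and Tbc1d25 at 0.08. 2900002K06Rik lies on the other strand at chrX:8145429-8147964 and its span overlaps the first exon of Rbm3. It was at 3.13, 2.92, 3.29 and 2.76 CPM in BM-Treg and at 0.935, 0.319, 4.10 and 1.10 CPM in SP-Treg, low in 3 of 4 spleen libraries (log2 fold change 0.92 ± 0.55, adjusted p = 0.342), and 2900002K06Rik passed without SP-Treg replicate 3, at 1.92. As the sources used here do not state that reads were counted by strand, reads of the overlap cannot be told apart, but its level was a small fraction of that of Rbm3.

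Of all genes tested, 3.72% were called higher and 5.02% lower in BM-Treg at an adjusted p under 0.05 (499 and 673 of 13397), with a median log2 fold change of -0.01. On log2(FPKM + 1), limma called 482 higher and 283 lower, and on counts with a filter of at least 10 in every library edgeR called 632 higher and 599 lower, so the split between the directions depends on the settings. Against this background stood 10 lists of genes tied to Cirbp and Rbm3, with 112 genes tested, of which 8 were higher and 20 lower (7.14% and 17.9%). The lists were chosen with earlier results of these data known, so their shares are a description and no independent support. Most of the lower calls were heat shock genes. With batch as a term, 3 of the 34 called genes that the naming rule selected kept their calls (Hspe1, Per1 and Egr2), so each of the other calls below was lost there. The fold changes went both ways there and are given below for the named genes of these lists. Over all genes, DESeq2 called 5.87% higher and 6.87% lower and limma-voom 3.87% and 5.22%, and by edgeR 10.9% were higher and 12.4% lower at an unadjusted p under 0.05, the backgrounds for the counts by these tools.

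Heat shock genes were lower in BM-Treg, and whether temperature had a part in this was not tested. Of 21 tested, 12 were called lower and 0 higher by edgeR, 14 and 0 by DESeq2, 10 and 0 by limma-voom, and 15 and 0 had an unadjusted p under 0.05, and the median log2 fold change was -1.04. Hspe1, the mitochondrial co-chaperonin, fell by 1.18 ± 0.13 on the log2 scale (adjusted p = 0.00018), from 74.0 ± 11.5 CPM in SP-Treg to 32.6 ± 3.18 in BM-Treg. Its partner Hspd1 was at -1.44 ± 0.26 (adjusted p = 0.0109). Hsp90aa1, the inducible cytosolic HSP90, was at 234, 268, 274 and 334 CPM in BM-Treg replicates 1 to 4 and at 1019, 1021, 601 and 497 CPM in SP-Treg replicates 1 to 4 (log2 fold change -1.50 ± 0.24, adjusted p = 0.00484). All SP-Treg libraries were above all BM-Treg libraries, and SP-Treg replicates 1 and 2 were higher than replicates 3 and 4. The constitutive Hspa8 followed at -0.85 ± 0.15 (adjusted p = 0.00271), Hsp90ab1 at -1.14 ± 0.23 (adjusted p = 0.0149), and the co-chaperones Stip1 at -1.35 ± 0.31 (adjusted p = 0.0366) and Chordc1 at -1.16 ± 0.25 (adjusted p = 0.0202). The transcription factor Hsf1 (-0.04 ± 0.12, adjusted p = 0.883) and Dnajb1 (-0.51 ± 0.23, adjusted p = 0.231) did not pass. Neither did the stress-inducible Hspa1a and Hspa1b, at 2.77 ± 4.08 and 3.77 ± 2.01 CPM in BM-Treg and 8.44 ± 7.81 and 7.86 ± 6.73 CPM in SP-Treg (SD, n = 4).

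Summed over the list, heat shock genes were at 3764, 4448, 4658 and 5765 CPM in BM-Treg replicates 1 to 4 and at 12826, 12106, 7396 and 7205 CPM in SP-Treg replicates 1 to 4. The tissues did not overlap. Within the spleen, replicate 4 had the highest Cirbp level and the lowest heat shock sum, but replicate 3, close to it in the heat shock sum, had one of the lower Cirbp levels. Within the bone marrow, replicate 1 had the lowest heat shock sum and 19.6 CPM of Cirbp, below the 21.4 CPM of replicate 4, which had the highest sum. The part of the heat shock genes' expression, or of what sets it, in the level of Cirbp was not tested. Within batch 3 the median log2 fold change of the list was -0.80. The 12 called genes were all lower there, which adds nothing to their calls, as the libraries of batch 3 were among those that gave them. The number of calls fell to 6 without BM-Treg replicate 1, to 7 without replicate 2 and to 6 without replicate 3, and to 1 with batch as a term, which leaves a single BM-Treg library to carry the tissue contrast. Without each of these 3 libraries in turn, the calls of Stip1 and Chordc1 were lost, and that of Hsp90ab1 without replicates 1 and 3. The call of Stip1 was also lost without SP-Treg replicate 1 or 2. With the replicate number as a block, 6 calls were left among the heat shock genes, and those of Hspd1, Stip1, Chordc1 and Hsp90ab1 were lost. The log2 fold changes with batch as a term were smaller in size, at -1.05 (Hspe1), -1.15 (Hspd1), -1.23 (Hsp90aa1), -0.58 (Hspa8), -0.73 (Hsp90ab1), -0.87 (Stip1) and -0.83 (Chordc1). Their log2 fold changes lay from -1.55 to -1.16 (Stip1), -1.33 to -0.97 (Chordc1) and -1.30 to -0.97 (Hsp90ab1) over all libraries left out.

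**Figure D3:**
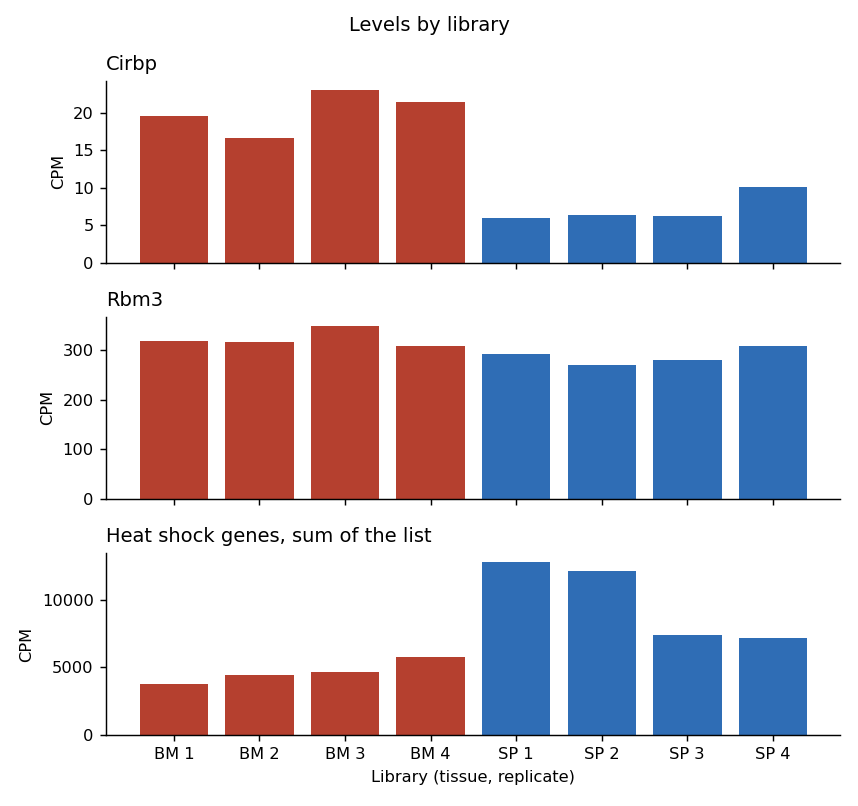
CPM of Cirbp, of Rbm3 and of the heat shock list (sum of its genes) in each library, BM-Treg in red and SP-Treg in blue. Cirbp is higher and the heat shock sum lower in BM-Treg, with a heat shock sum between 3764 and 5765 CPM in BM-Treg and between 7205 and 12826 in SP-Treg. Within a tissue this order does not hold in every library, and Cirbp was selected on these values.

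Of 8 genes tested that are known to act on Cirbp or Rbm3, 0 passed edgeR's test in either direction, and their median log2 fold change was 0.02. At an unadjusted p under 0.05 there was 1, and DESeq2 called 1 and limma-voom 0. Sp1, the factor that binds the octamer shown above, was at 0.11 ± 0.09 (adjusted p = 0.528), and Hnrnph1, which represses the Rbm3 poison exon, was at -0.17 ± 0.10 (adjusted p = 0.346). The temperature-sensitive SR protein kinases Clk1 (0.04 ± 0.11, adjusted p = 0.879) and Clk4 (-0.17 ± 0.10, adjusted p = 0.344) did not pass. Srsf5 came closest, at 686, 627, 691 and 825 CPM in BM-Treg and 333, 350, 589 and 609 CPM in SP-Treg. Its groups did not overlap, yet its log2 fold change of 0.59 ± 0.20 did not pass (adjusted p = 0.0951). SP-Treg replicates 1 and 2 were far below replicates 3 and 4. Srsf5 passed without SP-Treg replicate 4, at 0.74, by DESeq2, at 0.60, with the replicate block, at 0.64, and with limma on log2(FPKM + 1), at 0.88, and log2(FPKM + 0.1), at 0.89. Among 13 SR proteins (median log2 fold change -0.15), Tra2a was the only call by edgeR, lower at -0.39 ± 0.11 (adjusted p = 0.0374). DESeq2 called 1 higher and 3 lower, limma-voom 0 and 1, and at an unadjusted p under 0.05 there were 1 and 3. Tra2a was at -0.18 and not called with batch as a term, and within batch 3 it was at -0.16. Its call was also lost without any of 6 libraries (BM-Treg replicates 1 to 3 and SP-Treg replicates 1, 3 and 4), with log2 fold changes from -0.47 to -0.33.

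Genes of proteins that modify or import CIRBP had 0 calls among 8 tested, by edgeR, DESeq2 and limma-voom alike, and 0 at an unadjusted p under 0.05, with a median log2 fold change of -0.05. Prmt1, the methyltransferase of its arginine residues, averaged 14.2 ± 2.98 CPM in the bone marrow and 14.6 ± 2.26 CPM in the spleen. Among 7 targets and receptors (median log2 fold change -0.09), Ly96, a part of the TLR4 receptor complex to which extracellular CIRBP binds, was higher at 0.84 ± 0.24 (adjusted p = 0.0389). Its level was low, 8.68 ± 1.76 and 4.83 ± 1.26 CPM, and the call was lost without any of 6 libraries (all of BM-Treg and SP-Treg replicates 1 and 4) and with the replicate block, with log2 fold changes from 0.69 to 0.98 (1.23 with batch as a term). Of 4 cold shock domain genes tested, a family distinct from Cirbp and Rbm3 in its RNA-binding domain, 2 were lower (list median -0.29). Csda, which encodes YBX3, was at -0.71 ± 0.11 (adjusted p = 0.00182) and Ybx1 at -0.45 ± 0.10 (adjusted p = 0.0149), the latter not passing without BM-Treg replicate 1 or 2, at log2 fold changes between -0.50 and -0.37 over all libraries left out. Csda was at -0.67 and Ybx1 at -0.31 with batch as a term. The hnRNP G genes Rbmx (-0.02 ± 0.11, adjusted p = 0.930) and Rbmxl1 (-0.40 ± 0.15, adjusted p = 0.123) did not pass, with 1 of them lower at an unadjusted p under 0.05 and 0 called by DESeq2 (list median -0.21).

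**Figure D4:**
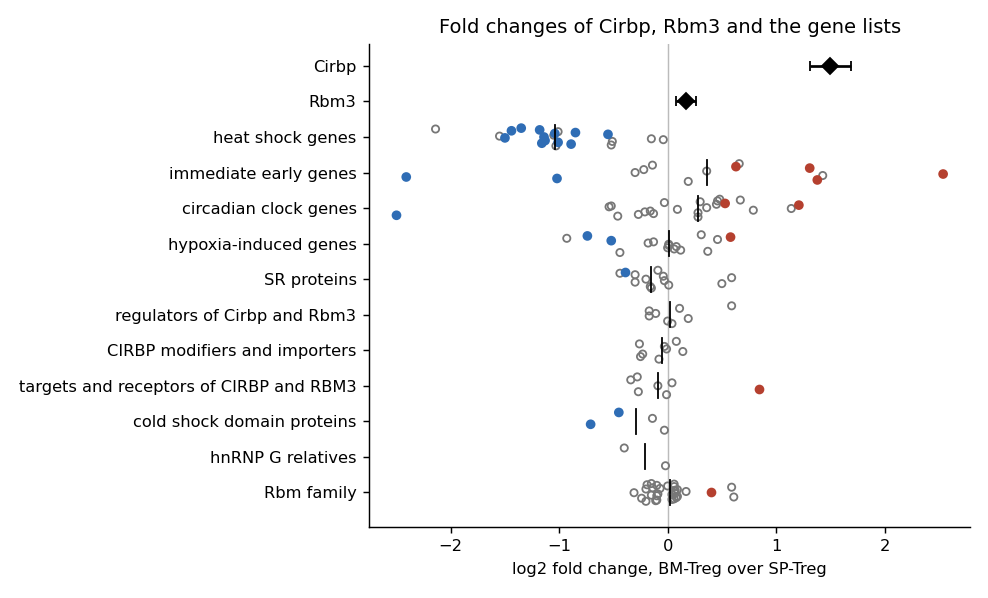
Log2 fold changes, BM-Treg over SP-Treg, where black diamonds are Cirbp and Rbm3 with SE, circles are the tested genes of each list, filled red (higher) or blue (lower) where they passed the test at an adjusted p under 0.05, and black lines are list medians. The heat shock list lies to the left, with a median of -1.04, and the regulators and modifiers lie around 0.

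The Rbm gene family, named for RNA-binding motif proteins, served as a further comparison. Of its 35 members other than Rbm3, 30 were tested, 1 was higher and 0 were lower, with a median log2 fold change of 0.02. At an unadjusted p under 0.05, 2 were higher and 0 lower, as by DESeq2. The background was 3.72% higher and 5.02% lower, so the family as counted here was close to it. The call was Rbm38, an RNA-binding target of p53, at 154, 160, 186 and 191 CPM in BM-Treg and 128, 141, 123 and 132 CPM in SP-Treg (0.40 ± 0.10, adjusted p = 0.0225). Its groups did not overlap, but the call was lost without BM-Treg replicate 3, BM-Treg replicate 4 or SP-Treg replicate 3 (log2 fold changes from 0.35 to 0.48 over all libraries left out, and 0.54 with batch as a term). In level per length, Rbm3 (mean of 272 FPKM over 8 libraries) was second in the family to the splicing factor Rbm39 (320 FPKM) and ahead of Rbm38 (143 FPKM).

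**Figure D5:**
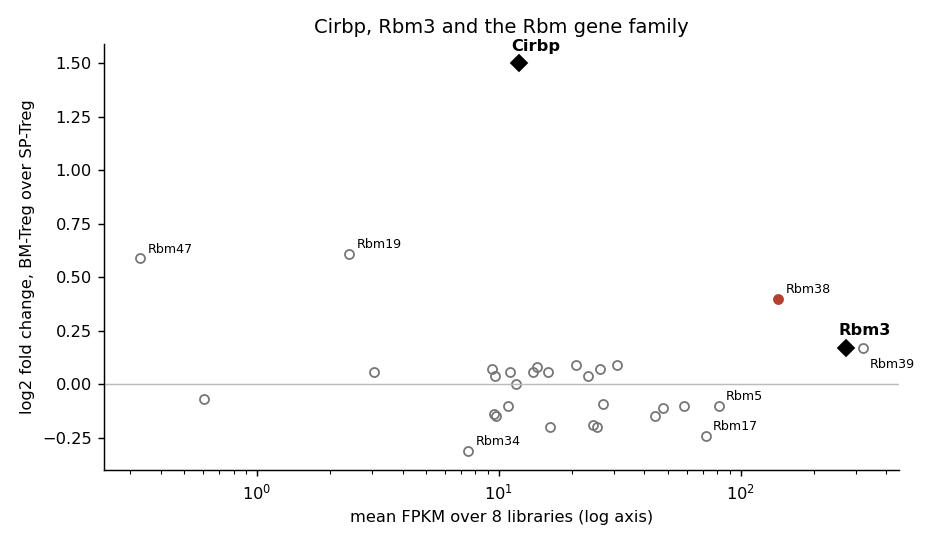
Log2 fold change against mean FPKM over 8 libraries (log axis) for Cirbp, Rbm3 (black diamonds) and the 30 tested members of the Rbm family (circles, filled where called). Rbm3 lies among the most abundant members near a log2 fold change of 0.17, and Cirbp, of middling level, lies at 1.50. Cirbp was selected on these values, so nothing is read from its place above the family.

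The genes most like Cirbp were ranked by Pearson's r of log2 CPM over the 8 libraries, among 6672 genes whose log2 CPM averaged 4 or more, as a description. They were Rab8a and 1110008P14Rik (r = 0.982 each), Gpr132 (0.980), Rln3 (0.978) and Rab5c (0.976). Their log2 fold changes, BM-Treg over SP-Treg, were from 0.38 (Rab5c) to 1.57 (Rln3), and 0.37 and 1.44 with batch as a term, as such an r mostly measures the difference between the tissues. After each tissue's mean had been subtracted, the genes nearest to Cirbp were Ier2 (0.980), Rpl8 (0.960), Rpl23a-ps3 (0.958), Gpr132 (0.956) and Rplp2 (0.955). SP-Treg replicate 4 was the highest spleen library in Cirbp, Ier2, Rpl8 and Rpl23a-ps3 alike, so that this library weighs heavily in these values. For Rbm3 the nearest genes were BC021614 (0.958), Irak2 (0.955), Otub1 (0.946), Dctn6 (0.931) and Il10ra (0.931), and after subtraction Cops4 (0.993), Gm10053 (0.956), Fbxo25 (0.934), Tigd2 (0.926) and Relb (0.916). Of these, edgeR called BC021614, Irak2, Il10ra and Gm10053, at log2 fold changes of 0.53, 0.44, 0.38 and -0.75. With batch as a term they were at 0.29, 0.18, 0.35 and -0.89, and the calls were lost. Rbm3 itself ranked 178 in likeness to Cirbp (r = 0.874), and 473 after subtraction (r = 0.660).

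Markers of other cells varied between the libraries. Erythroid markers, of which 7 of 7 were found and Hbb-b1 was the most abundant, summed to 15.2, 34.0, 21.2 and 21.0 CPM in BM-Treg and to 2.52, 191, 462 and 296 CPM in SP-Treg, so that 3 spleen libraries were above every BM-Treg library and at levels like those of Rbm3 (list median log2 fold change -3.46). B cell markers (5 of 5, Cd79b most abundant) summed to between 10.8 and 14.0 CPM in BM-Treg and to 6.33, 95.4, 20.0 and 15.6 CPM in SP-Treg. Neutrophil markers (8 of 8, Ngp most abundant) stayed at or below 17.6 CPM, monocyte and macrophage markers (5 of 5, Lyz2) at or below 28.4 CPM and pDC markers (5 of 5, Ccr9) at or below 80.1 CPM in every library. The plasma cell list summed to between 341 and 495 CPM, nearly all from Prdm1 and Xbp1, which Treg also express. Igj was at or below 0.395 CPM in BM-Treg and at 0.216, 24.7, 8.96 and 5.66 CPM in SP-Treg, and Sdc1 at or below 0.0928 CPM in BM-Treg and between 0.360 and 0.588 CPM in SP-Treg, both below the expression filter. None of these lists had a gene at 0 in all libraries or a call by edgeR. At an unadjusted p under 0.05, 6 erythroid, 2 B cell and 1 neutrophil marker were lower in BM-Treg, and DESeq2 called 3, 1 and 1 (backgrounds of 12.4% and 6.87% of all genes). Of 6 immunoglobulin constant genes tested, looked up after the data had been seen, edgeR called 3 lower in BM-Treg, DESeq2 5 and limma-voom 0. Over all genes, these tools called 5.02%, 6.87% and 5.22% lower. Ighg1 (adjusted p = 0.00627), Ighg2b (0.0197) and Ighg2c (0.0101) were at or below 0.232 CPM in each BM-Treg library and averaged 33.2 ± 23.8, 37.8 ± 46.4 and 37.1 ± 26.0 CPM in SP-Treg. These 3 calls were lost with batch as a term and with BM-Treg replicates 3 and 4 alone, and that of Ighg2b also without any BM-Treg library. Their log2 fold changes with batch as a term were -12.04 (Ighg1), -7.75 (Ighg2b) and -7.72 (Ighg2c), against -8.03, -9.61 and -8.50 without it, sizes that are loose because BM-Treg was close to 0. The part of these cells in the level of Cirbp was not tested.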

How the data were processed

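Libraries were made from sorted Treg with an isothermal amplification kit, and the submitters' processing notes name cutadapt 1.9, STAR 2.5.2a, RSEM 1.2.30 and GRCm38. The authors deposited expected counts (estimated reads per gene or transcript) and FPKM values for genes and for transcripts. Here, gene counts were rounded, filtered with edgeR's default filter by tissue (13397 of 38215 genes kept), scaled by TMM and compared by quasi-likelihood fits in edgeR (robust, no covariate), with Benjamini-Hochberg adjustment over all genes and a threshold of 0.05. The SE of a fold change is its size over the square root of F. CPM use TMM library sizes, and log2 CPM a prior count of 2. Transcript shares are percentages of a gene's summed transcript counts. Libraries within a tissue held no duplicates (chi-square per degree of freedom between 14.2 and 92.4). All 8 libraries were used, and 0 columns were left unmatched. The software was edgeR 4.0.16, DESeq2 1.42.0 and limma 3.58.1 under R 4.3.3, and the edgeR fit was tested on simulated data.

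Cirbp, Rbm3 and the lists were chosen with earlier results of these data known. The genes named by rule are Cirbp, Rbm3, 22 genes fixed by name, up to 6 called genes per list by size of fold change, neighbouring genes and the 5 genes most like each member. Cell markers, Y-linked genes, immunoglobulin genes, Rbmxl1 and Rbm39 are named outside this rule. List genes were matched by symbol or, for older names, by identifier in GENCODE M21, which holds 95.1% of the gene identifiers and gives both genes the same span. Promoter sequence is from RefSeq (GRCm38.p6). The alternatives were other normalizations, tests, filters and units, each library left out, blocking by replicate number, batch as a term, only the libraries of batch 3, a threshold of 0.01, coding transcripts alone, and no sex-chromosome or mitochondrial genes. BM-Treg replicates 3 and 4 alone, and ratios of transcript CPM with libraries left out, were added after the data had been seen.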

Additional observations from a re-analysis of the deposited data

Results flagged for a closer look

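In 13 of 156 (8.33%) groups of 4 libraries, the highest or the lowest library stood far from the other 3 by Dixon's test. Chance alone does this in about 1 group in 20, but the share found here cannot be set against that, since Cirbp was selected on these values and Ier2, Rpl8, Rpl23a-ps3, Gpr132 and Relb were chosen for their likeness to Cirbp or Rbm3 over the same libraries. No cause was tested. Cirbp in SP-Treg replicate 4 was at 10.1 CPM, above the 5.97 to 6.31 CPM of the other spleen libraries. In the same library Ier2 was at 25.3, Rpl8 at 264 and Rpl23a-ps3 at 76.7 CPM, each above the other spleen libraries. BM-Treg replicate 4 was the highest bone marrow library in Ly96 (11.3 CPM), Stip1 (136 CPM) and Chordc1 (104 CPM). SP-Treg replicate 3 was the highest spleen library in Clk4 (153 CPM) and Per1 (74.1 CPM), SP-Treg replicate 1 in Arntl (25.3 CPM) and SP-Treg replicate 2 in Tbc1d25 (15.6 CPM). Gpr132 was at 83.8 CPM in BM-Treg replicate 2, below the other bone marrow libraries, and Relb was at 22.0 CPM in BM-Treg replicate 3, above them.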

How the results depend on the processing

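Cirbp was higher in BM-Treg under every setting run, with a log2 fold change between 1.34 on log2(FPKM + 1) and 1.73 with coding transcripts alone (main value 1.50, 1.42 to 1.71 with 1 library left out). Rbm3 stayed between 0.11 with batch as a term and 0.26 on both FPKM scales (main value 0.17, 0.13 to 0.21 with 1 library left out), and has no value without the sex chromosomes. The difference in the coding share of Cirbp was 12.4 to 20.0 percentage points with 1 library left out.

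Genes called numbered 1172 (690 to 1048 with 1 library left out), and 258 with batch as a term, 728 on log2(FPKM + 0.1), 765 on log2(FPKM + 1), 427 at a threshold of 0.01 and 312 with BM-Treg replicates 3 and 4 alone, a setting chosen after seeing the data. Higher calls numbered 499 (297 to 425), and 786 by DESeq2, 111 with batch, 163 at 0.01 and 157 with replicates 3 and 4. Lower calls numbered 673 (393 to 639), and 147 with batch, 274 and 283 on the FPKM scales, 264 at 0.01 and 155 with replicates 3 and 4. Calls in the process lists numbered 28 (15 to 28), and 4 with batch, 18 with a filter of at least 1 count and 7 with replicates 3 and 4. Calls in the Rbm family numbered 1 (0 to 1), 2 by DESeq2 and 0 with batch. The cause was not tested. Batch 3 alone gives values with no test, and no calls were counted in it.

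With the replicate number as a block, 948 genes were called. Libraries of the tissues with the same number had correlations of -0.106, 0.059, -0.176 and 0.04, and not every library correlated best with its own number, so they share only a number.

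Signs changed only in genes not called. With batch as a term these were Clk1 (-0.09), Cry1 (0.27), Cry2 (-0.19), 1600002K03Rik (0.06) and Rpl23a-ps3 (0.04). On the FPKM scales they were Hnrnph1 (0.01), Hsf1 (0.02), Per2 (0.02 and 0.01), Rbmx (0.09 and 0.08) and Prmt1 (0.01). With replicates 3 and 4 they were Hsf1 (0.08), Per2 (0.12), Prmt1 (0.05) and Rpl23a-ps3 (0.01), and with at least 10 counts in every library Rbmx (0.01). With 1 library left out, ranges crossed 0 for Clk1 (-0.04 to 0.12), Hsf1 (-0.12 to 0.06), Per2 (-0.16 to 0.14), Cry1 (-0.29 to 0.06), Rbmx (-0.08 to 0.03), Prmt1 (-0.17 to 0.07), Rpl8 (-0.15 to 0.01) and Rpl23a-ps3 (-0.21 to 0.09). The cause was not tested. Of 34 named genes called, 3 kept the call with batch, 24 with the block and 14 whichever library was left out. Cirbp had between 75 and 137 counts per SP-Treg library, which limits its transcript shares.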

Other observations

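Clock genes, some of whose transcripts CIRBP binds, had 2 higher and 1 lower call among 22 tested (median log2 fold change 0.28), and 4 and 1 by DESeq2. By edgeR this was 9.09% and 4.55%, against 3.72% and 5.02% of all genes tested (5.87% and 6.87% by DESeq2). Nr1d1, the repressor REV-ERB alpha, was at 18.8, 21.5, 22.4 and 27.9 CPM in BM-Treg and at 12.1, 14.7, 6.53 and 5.81 CPM in SP-Treg (1.21 ± 0.27, adjusted p = 0.0161), with no overlap. Per1 was higher at 0.53 ± 0.16 (adjusted p = 0.0486), a call that was lost without BM-Treg replicate 3 or 4 or without SP-Treg replicate 1, 2 or 4 (log2 fold changes from 0.40 to 0.67 over all libraries left out). Bhlhe41 was lower, at 0.450 ± 0.330 and 2.49 ± 1.12 CPM (-2.50 ± 0.56, adjusted p = 0.0124). Clock (-0.27 ± 0.13, adjusted p = 0.216), Arntl (0.28 ± 0.19, adjusted p = 0.405) and Dbp (0.79 ± 0.31, adjusted p = 0.141) did not pass, nor did Per2, Cry1, Cry2 and Nr1d2, whose log2 fold changes were between -0.13 and 0.45 by edgeR with all libraries. Nr1d2 passed without SP-Treg replicate 1, at 0.71. Per1 was called at 0.88 with batch as a term, and Nr1d1 at 1.51 and Bhlhe41 at -1.56 were not. The time of day at which each animal was killed is not given in the sources used here.

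Hypoxia, another known inducer of both genes, was followed with 16 tested genes, of which 1 was higher and 2 lower (median log2 fold change 0.01), and 2 and 4 by DESeq2. The edgeR shares were 6.25% and 12.5%, against 3.72% and 5.02% of all genes tested. Ldha was at -0.52 ± 0.10 (adjusted p = 0.00460) and Pgk1 at -0.74 ± 0.19 (adjusted p = 0.0288), whereas Pdk1 was at 0.58 ± 0.14 (adjusted p = 0.0190). The list had 1 call in place of 3 without BM-Treg replicate 1 or replicate 2. The call of Pgk1 (-0.93 to -0.58 over all libraries left out) was lost without BM-Treg replicates 1, 2 or 3 or SP-Treg replicates 1 or 4, and with batch as a term, at -0.29 (-0.27 within batch 3), and that of Pdk1 (0.49 to 0.67) without BM-Treg replicates 1 or 2 or SP-Treg replicate 2. Pdk1 at 0.39 and Ldha at -0.40 were not called with batch as a term. Immediate early genes, which can respond within minutes of cell isolation, moved in both directions, with 4 higher and 2 lower of 13 tested (median log2 fold change 0.36), and 5 and 2 by DESeq2. Their edgeR shares were 30.8% and 15.4%, against the same 3.72% and 5.02% of all genes. Fosb (2.54 ± 0.58, adjusted p = 0.0452), Dusp1 (1.38 ± 0.29, adjusted p = 0.0236), Junb (1.31 ± 0.27, adjusted p = 0.0216) and Jund (0.63 ± 0.17, adjusted p = 0.0360) were higher. Egr2 (-2.41 ± 0.28, adjusted p = 0.00131) and Egr1 (-1.02 ± 0.17, adjusted p = 0.00343) were lower, and of these 6 calls only that of Egr2 was kept with batch as a term, at -2.84. There the others were at 3.13 (Fosb), 1.57 (Dusp1), 1.32 (Junb), 0.92 (Jund) and -0.59 (Egr1). The call of Fosb (2.26 to 2.94) was lost without any BM-Treg library or SP-Treg replicate 2 or 4, and that of Jund (0.52 to 0.79) without BM-Treg replicates 2, 3 or 4 or SP-Treg replicates 2, 3 or 4, and with the replicate block. The call of Dusp1 (1.21 to 1.57) was lost without BM-Treg replicates 3 or 4 or SP-Treg replicates 2 or 4, and that of Junb (1.14 to 1.57) without BM-Treg replicate 4 or SP-Treg replicate 3. The calls in the list fell from 6 to 3 without BM-Treg replicate 3 or SP-Treg replicate 2 and to 2 without BM-Treg replicate 4. Temperature and time between killing and lysis are not given in the sources used here, and the part of cell handling in the level of Cirbp was not tested.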
